A study of Homo sapiens with 6 samples.

Results

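The genes described here are 38 integrins, laminins, focal adhesion adaptors, hemidesmosome components and syndecans, measured in Capan-1 cells after silencing of GNE. They were chosen by name, with earlier results of these data known. Each was read from 1 probe set, a group of array probes that together measure a transcript. The probe set used was the one assigned to that gene only with the highest mean over all arrays, and probe sets marked as cross-hybridising (_x_at) were used only where a gene had no other. Of the 38 genes, 35 had such a probe set, out of 19775 genes on the array, and 34 passed the filter for testing, a mean log2 value above 4 over the 6 arrays. ITGB3, the beta chain of a vitronectin receptor, was below that filter on all 7 of its probe sets, and the probe set used read 3.44, 3.21 and 3.18 in siGNE cells, against 3.24, 3.22 and 3.17 in control cells, which is close to the array medians of 2.96 to 3.02. ITGB6 is annotated only on probe sets that also carry a second gene and was given no value, and a further 2 of the 38 are not analysed here.

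Capan-1 is an established human pancreatic carcinoma line, and all arrays carry RNA from this line alone. The tested cells were transfected with small interfering RNA (siRNA) against GNE (siGNE, 3 arrays) and the control cells with an siRNA the labels call allStar (3 arrays), with 2 transfections 48 h apart and harvest 72 h after the second in both groups. The labels number the arrays 1 to 3 in each group, and arrays of 1 number are called a pair. The paired design was also chosen with earlier results of these data known. No label states whether replicate arrays stem from separate cultures or how many different siRNAs were given, so p-values measure the spread between these arrays, which may be technical. The values are log2 expression from GCRMA, as deposited, so a difference of 1 is a 2-fold change.

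Integrins are cell surface receptors made of 1 alpha and 1 beta chain that bind laminins, collagens and other matrix proteins. Inside the cell, talin and the kindlins bind the beta tails, and vinculin, alpha-actinin and zyxin join the complex to actin at focal adhesions, where focal adhesion kinase, paxillin and BCAR1 relay signals. In epithelia the alpha 6 beta 4 integrin sits in hemidesmosomes, which plectin and dystonin tie to keratin filaments. Integrins and CD44 carry many glycans that end in sialic acid, whose synthesis starts with the enzyme GNE. The arrays measure transcripts and not the proteins or their glycans.

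GNE was lower in siGNE cells on every array. It read 8.39, 9.86 and 9.57 in siGNE cells, against 11.12, 11.47 and 10.86 in control cells. The difference was -1.88 (SE 0.29), or 27.2% of the control level, with a limma adjusted p of 0.0348 in the fit that takes the pair number as a block and 0.131 in the fit without it. All 8 ductal epithelium markers listed for this check (KRT7, KRT8, KRT18, KRT19, EPCAM, CDH1, MUC1 and CEACAM6) had a mean above 10. Of the markers of other cell types, 2 of 8 for fibroblasts (COL1A1 and ACTA2), 1 of 5 for leukocytes (LYZ) and 0 of 4 for endothelium had a mean above 4. The summed log2 values of these lists were 31.7 to 33.7 in siGNE and 31.6 to 33.6 in control cells for fibroblasts, and 21.0 to 21.7 in siGNE and 20.7 to 21.8 in control cells for leukocytes. For endothelium they were 10.7 to 10.8 in siGNE and 10.8 to 10.9 in control cells. COL1A1, a collagen chain, read 8.82, 9.22 and 8.17 in siGNE cells, against 7.82, 8.80 and 7.47 in control cells, and rose by 0.71 (SE 0.13, limma adjusted p 0.0441 with the block and 0.512 without it). ACTA2, smooth muscle actin, read 7.79, 7.94 and 7.22 in siGNE cells, against 8.38, 8.33 and 7.79 in control cells, and fell by 0.52 (SE 0.09, limma adjusted p 0.0422 with the block and 0.420 without it). These 2 fibroblast markers therefore moved in opposite directions, each in all 3 pairs, which the sums do not show. LYZ differed by 0.03 and did not pass (limma adjusted p 0.920). The defining leukocyte gene PTPRC and the fibroblast genes COL1A2, COL3A1, DCN, LUM, PDGFRA and PDGFRB were all below 4. The labels name Capan-1 cells only, and whether other cells contributed to the values below was not tested.

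After silencing of GNE the adhesion genes were not called more often than genes in general. In limma with the replicate number as a block, 1 of the 34 tested genes rose, the kindlin FERMT2, and 1 fell, the integrin chain ITGB8. The background was 4.11% of all 10733 tested genes higher and 5.79% lower, together 9.89%, so the share of 5.88% among the adhesion genes was not above it. So small a count is not read as a result about these genes. Without the block 0 of the 34 passed in limma (3 had an unadjusted p under 0.05, as had 16.3% of all genes), where 0.028% of all genes passed higher and 0% lower. The median difference of the 34 genes was 0.02, against -0.02 over all tested genes. In the pairs, the median of the 34 was 0.06, -0.10 and 0.10. The median size of a difference, without its sign, was 0.13 for the adhesion genes and 0.19 for all tested genes.

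**Figure D1:**
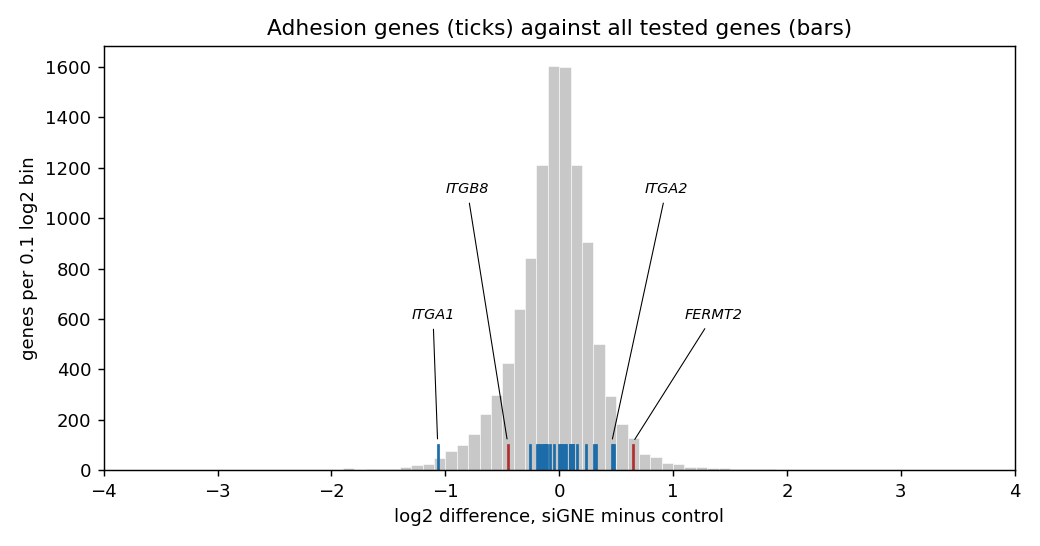
Histogram of the log2 difference, siGNE minus control, for the 10733 tested genes in bins of 0.1 (grey bars), with the 34 tested adhesion genes as ticks (red: adjusted p under 0.05 with the replicate block, blue: not). The ticks run from -1.07 (ITGA1) to 0.65 (FERMT2), and 32 of the 34 are smaller than 0.5 in either direction.

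The direction was shared by all 3 pairs for 20 of the 34 genes, of which 11 were higher (32.4%) and 9 lower (26.5%) in siGNE cells. Over all tested genes, 27% were higher and 30.9% lower in all 3 pairs. All siGNE values lay above all control values for 2 adhesion genes (FERMT2 and ITGA2) and below them for 3 (ITGB8, ITGB4 and ILK), against a background of 9.42% and 13.9%. For the 1 probe set used per gene, the values also bound what was not called. The 95% interval of the difference in limma with the block lay inside a 2-fold change in either direction for 33 of the 34 genes, all but ITGA1, against 91.7% of all tested genes. It lay inside a 1.5-fold change for 27 of the 34, against 65.9% of all tested genes. These bounds do not extend to other probe sets of a gene. Probe set 229221_at of CD44 had an interval of 1.17 to 1.67, beyond a 2-fold change.

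FERMT2, also called kindlin-2, binds integrin beta tails and helps talin activate them. Its probe set read 9.43, 9.46 and 9.04 in siGNE cells, against 8.87, 8.65 and 8.47 in control cells. All 3 siGNE arrays lay above all 3 control arrays, and the pair differences were 0.56, 0.81 and 0.57. FERMT2 rose by 0.65 (SE 0.10, 95% interval 0.40 to 0.90), or 1.56-fold (limma adjusted p 0.0337 with the block and 0.189 without it). The other tested probe sets of FERMT2 gave like values. Probe set 209209_s_at read 7.87, 7.65 and 8.0 in siGNE cells, against 7.29, 7.11 and 7.00 in control cells, and rose by 0.71 (SE 0.12, limma adjusted p 0.0409 with the block). Probe set 214212_x_at differed by 0.58 with all siGNE arrays again above all control arrays, and did not pass (limma adjusted p 0.0745). FERMT1, or kindlin-1, the main kindlin of epithelia, differed by 0.06 (95% interval -0.20 to 0.32) and did not pass on any of its 3 tested probe sets.

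ITGB8 is the beta chain that pairs only with the alpha V chain and binds latent TGF-beta. Its probe set read 8.89, 8.98 and 8.74 in siGNE cells, against 9.33, 9.47 and 9.17 in control cells. All 3 siGNE arrays lay below all 3 control arrays, with pair differences of -0.45, -0.49 and -0.42. ITGB8 fell by 0.45 (SE 0.08, 95% interval -0.67 to -0.24), which leaves 73.0% of the control level, with a limma adjusted p of 0.0425 with the block and 0.219 without it. Its partner ITGAV read 13.77, 13.49 and 13.64 in siGNE cells, against 13.78, 13.70 and 13.66 in control cells, a difference of -0.08 (95% interval -0.31 to 0.16) that did not pass. No other single-gene probe set of ITGB8 reached the filter.

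The promoters of these 2 genes are shown because they are the members that passed. The windows are the 250 bases before the RefSeq gene start on GRCh38.p14, chr14:52951051-52951300 on the minus strand for FERMT2 and chr7:20330650-20330899 on the plus strand for ITGB8, 5′ to 3′ in the direction of the gene. Capitals mark the GC box GGGCGG on either strand, with overlapping matches each counted.
FERMT2: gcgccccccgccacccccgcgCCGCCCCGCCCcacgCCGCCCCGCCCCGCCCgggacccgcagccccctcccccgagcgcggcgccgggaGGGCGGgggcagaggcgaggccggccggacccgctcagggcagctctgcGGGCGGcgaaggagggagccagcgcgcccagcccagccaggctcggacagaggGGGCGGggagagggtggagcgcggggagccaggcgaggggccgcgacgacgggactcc
ITGB8: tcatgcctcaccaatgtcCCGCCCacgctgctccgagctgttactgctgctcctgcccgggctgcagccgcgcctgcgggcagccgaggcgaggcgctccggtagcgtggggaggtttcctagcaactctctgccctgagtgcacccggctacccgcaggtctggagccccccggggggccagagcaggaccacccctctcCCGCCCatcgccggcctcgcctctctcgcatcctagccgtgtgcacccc
The FERMT2 window holds 8 GC boxes in 84.4% G and C, and the ITGB8 window 2 in 71.2%. The table gave 46 start site windows for 27 of the 35 measured adhesion genes. A GC box was found in 32 of these 46 windows (69.6%), against 42.6% of 35116 windows of the same length over genes of all kinds. Some genes have several windows, so the 46 are not independent. The 35116 windows were not limited to genes that passed the filter. This difference in share was not tested and is not read as a trait of adhesion genes. Neither printed window holds an AP-1 site (TGANTCA), an element of the ATF4 and C/EBP type (TGATGNAA) or an antioxidant response element core (TGACNNNGC), searched on both strands. Those letters were found in 6.52%, 4.35% and 13% of the adhesion windows, against 6.57%, 3.14% and 10.9% of all windows.

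**Figure D2:**
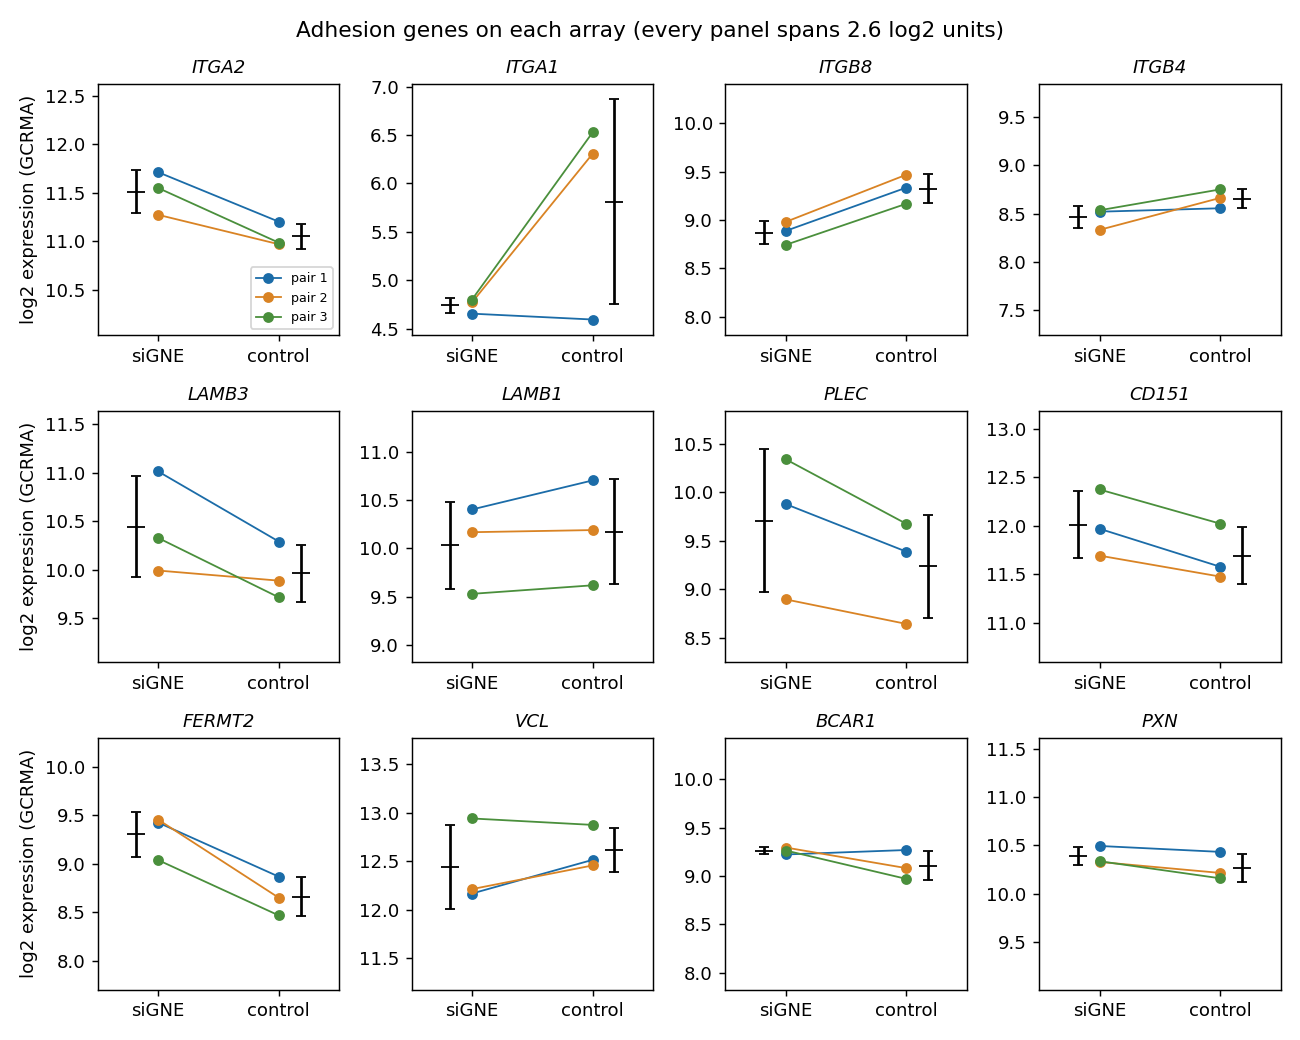
Log2 expression on each array for the 2 genes of each role with the smallest unadjusted p, siGNE left and control right, with a line joining each pair and a black bar for the mean and SD of 3 arrays. The lines of FERMT2 fall and those of ITGB8 climb towards control in all 3 pairs by like amounts, while for ITGA1 pair 1 is nearly flat and the other two are steep.

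Of the 7 tested integrin alpha chains 0 passed. ITGA2, the alpha chain of a collagen and laminin receptor, came closest, and read 11.71, 11.27 and 11.55 in siGNE cells, against 11.20, 10.97 and 10.98 in control cells. The siGNE values lay above all control values, and the difference of 0.46 (SE 0.10) had a limma adjusted p of 0.0519 with the block and 0.264 without it. At the same threshold ITGA2 passed in 5 of the other settings, with quantile normalization or median centring, with a filter at a mean above 6, with a variance trend and with the mean of its probe sets (limma adjusted p 0.0250 to 0.0472), and as reported it is also under a threshold of 0.1. It did not pass without the block, without a filter, with values below 4 raised to 4, with robust variances or without any 1 pair. All these settings rest on the same arrays, so passing in several of them is not repeated evidence. The second probe set of ITGA2 differed by 0.36 and did not pass (limma adjusted p 0.0901). ITGA1, the alpha chain of another collagen receptor, read 4.65, 4.77 and 4.80 in siGNE cells, against 4.59, 6.31 and 6.53 in control cells. The siGNE values were alike and near the filter at 4, and the control array of pair 1 was as low as they were. Its difference of -1.07 (SE 0.37) did not pass (limma adjusted p 0.132), and without pair 1 it was -1.63 (limma adjusted p 0.0615).

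The other alpha chains differed by -0.25 to 0.05. ITGA3 and ITGA6, which make the laminin receptors of epithelia, differed by 0.02 (95% interval -0.23 to 0.28) and 0.05 (95% interval -0.16 to 0.27). ITGA5, the alpha chain of the fibronectin receptor, differed by -0.12, and ITGAE, best known from intraepithelial lymphocytes, by -0.25 with the opposite sign in pair 1 (0.04). Of the 4 tested beta chains, ITGB1, the common partner of most alpha chains, read 14.39, 14.32 and 14.59 in siGNE cells, against 14.31, 14.24 and 14.47 in control cells. It was higher in every pair, by 0.09 on average (95% interval -0.12 to 0.31), and did not pass. ITGB4, the beta chain of the hemidesmosome, read 8.52, 8.33 and 8.53 in siGNE cells, against 8.56, 8.66 and 8.75 in control cells. The groups did not overlap, yet the difference of -0.19 (SE 0.10) did not pass (limma adjusted p 0.249).

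Of the 5 tested laminin chains, the subunits of the basement membrane proteins to which these receptors bind, 0 passed. LAMB3, the beta chain of the epithelial laminin-332, read 11.01, 9.99 and 10.33 in siGNE cells, against 10.29, 9.89 and 9.71 in control cells. The groups overlapped, with pair differences of 0.72, 0.10 and 0.61, and the mean of 0.48 (SE 0.15) had a limma adjusted p of 0.103. LAMB1, a chain of laminin-111 and laminin-511, read 10.40, 10.17 and 9.53 in siGNE cells, against 10.70, 10.19 and 9.62 in control cells. Its arrays differed more between pairs than within them, and the difference was -0.14 (SE 0.10, limma adjusted p 0.393). LAMA5, LAMB2 and LAMC1 differed by 0.11, 0.0025 and -0.11. A second probe set of LAMC1 stood at 0.49, with pair differences of 1.02, 0.47 and -0.0041, and did not pass (limma adjusted p 0.181).

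Of the 6 tested hemidesmosome and membrane partners 0 passed. On the probe set used, 4 were higher in all 3 pairs (PLEC, CD151, DST and SDC4) and 2 lower (CD44 and SDC1), where 27% and 30.9% of all tested genes were. For CD44 this depends on the probe set, as 8 other tested ones differed in the opposite direction and 2 of those passed. PLEC, plectin, read 9.88, 8.90 and 10.34 in siGNE cells, against 9.39, 8.64 and 9.68 in control cells. Pair 2 was low in both groups, so the groups overlapped, and the difference was 0.47 (SE 0.11) with a limma adjusted p of 0.0646 with the block and 0.715 without it. The tetraspanin CD151, which binds laminin receptors of the alpha 3 and alpha 6 type, read 11.97, 11.69 and 12.37 in siGNE cells, against 11.58, 11.47 and 12.02 in control cells, a difference of 0.32 (SE 0.09, limma adjusted p 0.0845). With a variance trend in limma PLEC and CD151 both passed (adjusted p 0.0449 and 0.0362), and PLEC also with a filter at a mean above 6 (adjusted p 0.0370). DST, dystonin, differed by 0.30 (limma adjusted p 0.105), while its probe set 204455_at differed by -0.51 (limma adjusted p 0.101). The heparan sulfate carriers SDC4 and SDC1 differed by 0.23 and -0.15 (limma adjusted p 0.223 and 0.283).

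**Figure D3:**
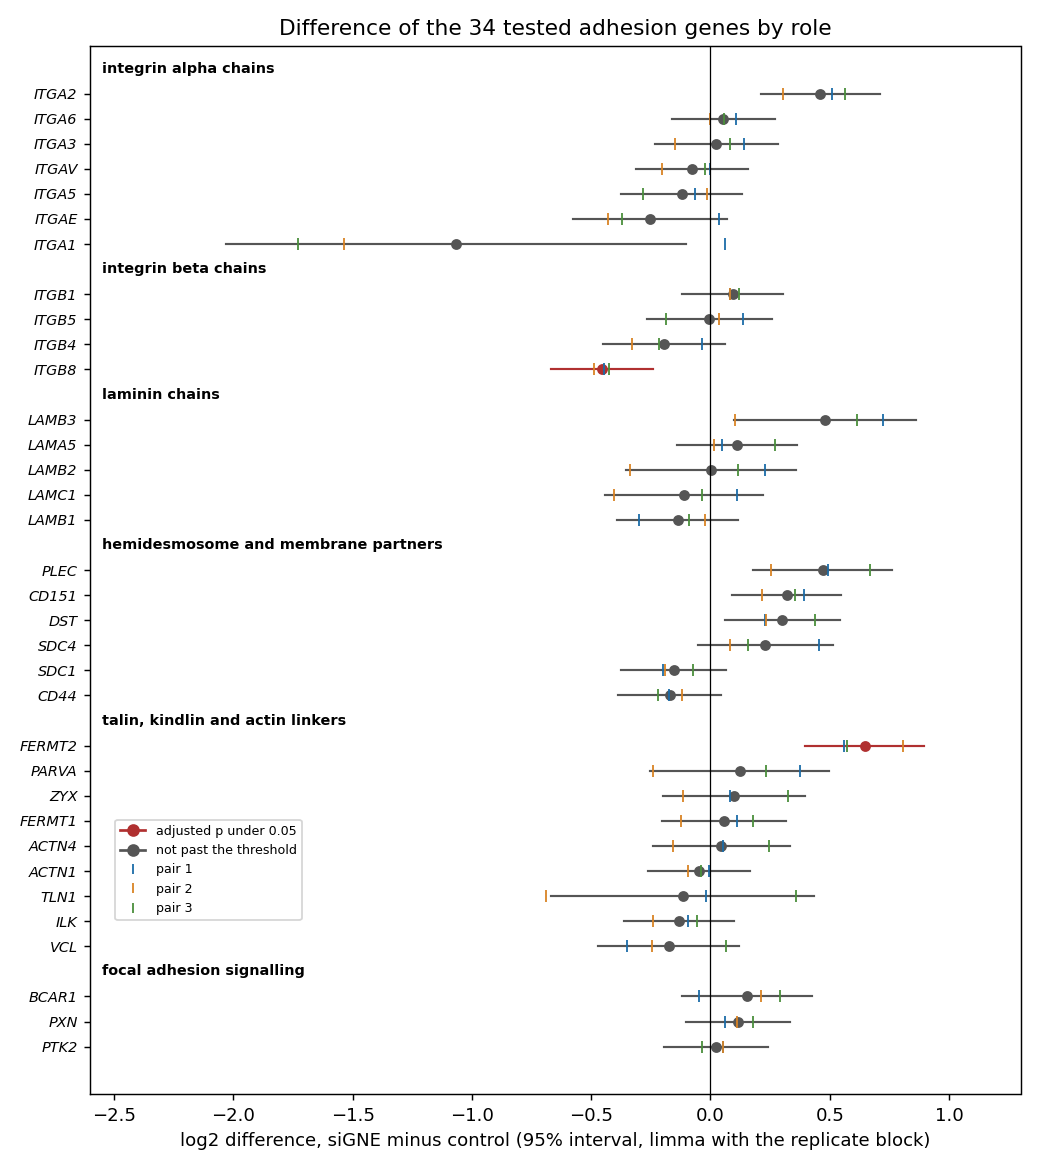
Log2 difference, siGNE minus control, of the 34 tested adhesion genes grouped by role, with the 95% interval of limma with the replicate block (line), the mean (dot) and the 3 pair differences (ticks). FERMT2 (0.65) and ITGB8 (-0.45) are the 2 in red that passed, and the interval of ITGA1 is the longest.

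Apart from FERMT2, the 8 other tested linkers between integrins and actin did not pass, with differences from -0.18 to 0.12. Vinculin (VCL), which reinforces the bond of talin to actin, read 12.17, 12.21 and 12.94 in siGNE cells, against 12.51, 12.46 and 12.88 in control cells. The difference was -0.18 (SE 0.11, limma adjusted p 0.351), with pair 3 at 0.07. Of these 8, talin (TLN1) varied most between pairs, at -0.02, -0.69 and 0.36. Integrin-linked kinase (ILK), a scaffold protein of these complexes, differed by -0.13 and its partner PARVA, parvin alpha, by 0.12. ACTN1, ACTN4 and ZYX differed by -0.05, 0.05 and 0.10.

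The 3 signalling genes of focal adhesions gave the smallest range, from 0.02 to 0.15, and 0 passed. BCAR1, the scaffold p130Cas, read 9.22, 9.29 and 9.26 in siGNE cells, against 9.27, 9.08 and 8.97 in control cells. The siGNE arrays were closer together than the control arrays, and the difference was 0.15 (SE 0.10, limma adjusted p 0.372). PXN, paxillin, read 10.49, 10.33 and 10.34 in siGNE cells, against 10.43, 10.22 and 10.16 in control cells, a difference of 0.12 (SE 0.08, limma adjusted p 0.396). PTK2, focal adhesion kinase, differed by 0.02 (95% interval -0.19 to 0.24).

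The choice of probe set mattered for some genes. The 35 genes have 110 single-gene probe sets, of which 72 were tested and 6 passed in limma with the block, against 9.49% of all 22085 tested probe sets. These were 2 of FERMT2 (209210_s_at, the one used, and 209209_s_at), that of ITGB8, 2 of CD44 and 1 of ITGB5. Of 38 other tested probe sets of 17 genes, 18 differed in sign from the probe set used, and 2 of those 18 passed. They belong to CD44 (8), PTK2 (3), PARVA (2), DST (2), FERMT1, ITGB5 and LAMC1, and both that passed are of CD44. The PTK2 ones lay between -0.28 and -0.0080 and the PARVA ones at -0.27 and -0.32, and none of these passed (lowest limma adjusted p 0.0959, for PTK2). The probe sets of CD44 and ITGB5 described next were singled out with their values in view.

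CD44, a hyaluronan receptor with many splice forms, was read from 212063_at, at 11.90, 11.83 and 11.57 in siGNE cells, against 12.07, 11.95 and 11.79 in control cells. That probe set was lower in every pair, by 0.17 on average, and did not pass (limma adjusted p 0.236). Probe set 229221_at read 7.60, 7.15 and 6.19 in siGNE cells, against 6.29, 5.78 and 4.60 in control cells. The arrays of different pairs overlapped, but each siGNE array was above its own control by 1.31, 1.37 and 1.58. It rose by 1.42 (SE 0.10, 95% interval 1.17 to 1.67), or 2.68-fold (limma adjusted p 0.0179 with the block and 0.300 without it). Probe set 210916_s_at read 9.85, 8.99 and 9.66 in siGNE cells, against 8.78, 8.20 and 9.13 in control cells, and rose by 0.79 (SE 0.13, limma adjusted p 0.0366 with the block and 0.329 without it). Of the 6 other tested CD44 probe sets, 1557905_s_at stood at 0.67 and did not pass (limma adjusted p 0.0646), and the rest lay between 0.03 and 0.17. The transcript part that each probe set covers was not examined.

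ITGB5, the beta chain of another vitronectin receptor, was read from 201125_s_at, at 10.89, 11.11 and 10.94 in siGNE cells, against 10.75, 11.08 and 11.12 in control cells, a difference of -0.0041 (95% interval -0.27 to 0.26). Probe set 201124_at read 5.62, 6.76 and 6.31 in siGNE cells, against 6.59, 7.39 and 7.24 in control cells. The groups overlapped, and every siGNE array was below its own control. It fell by 0.84 (SE 0.11), to 55.8% of control, with a limma adjusted p of 0.0281 with the block and 0.342 without it. Both other tested ITGB5 probe sets are of the cross-hybridising kind and differed by 0.01 and -0.09. The probe sets of DST also parted, with 204455_at at -0.51 and below control on all arrays, against 0.30 for the one used, but none passed (lowest limma adjusted p 0.0755).

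**Figure D4:**
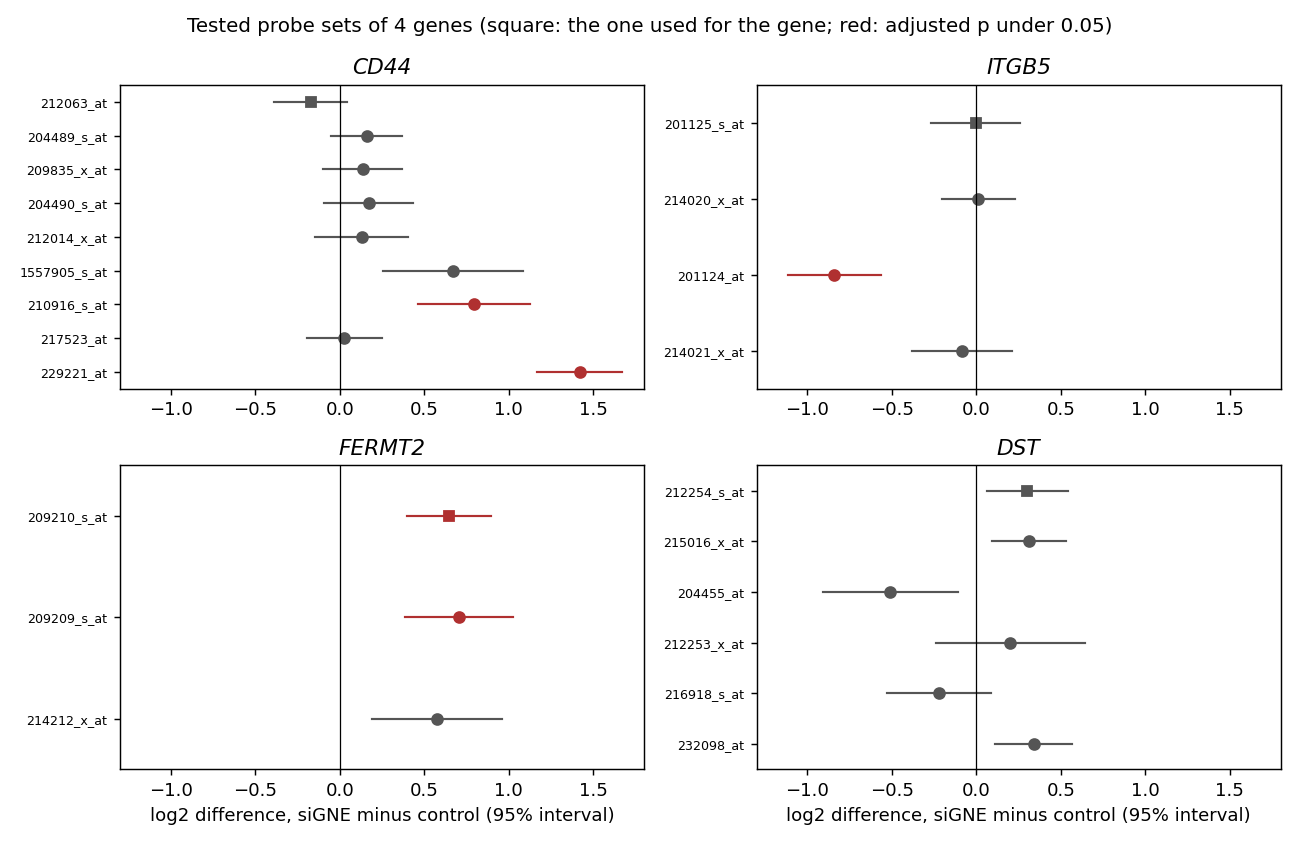
Log2 difference, siGNE minus control, with the 95% interval of limma with the replicate block, for every tested probe set of CD44, ITGB5, FERMT2 and DST, ordered from the highest mean signal (top). Squares mark the probe set used for the gene and red an adjusted p under 0.05. The probe sets of FERMT2 lie together, while 229221_at of CD44 (1.42) and 201124_at of ITGB5 (-0.84) stand apart from the squares.

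Beyond the 38, a list of 97 other integrins, laminins, adaptors, kinases and matrix receptors was examined, of which 56 were tested. In limma with the block 3 rose (FYN, FHL2 and GPC1) and 1 fell (CAV1), and without it 0 passed (4 had an unadjusted p under 0.05, against 16.3% of all tested genes). The 4 called with the block are 7.14% of the 56, against 4.11% higher, 5.79% lower and together 9.89% of all tested genes, so this share was not above the background either. None of the 14 other integrins reached the filter. Caveolin-1 (CAV1), the coat protein of caveolae, read 10.33, 10.13 and 10.13 in siGNE cells, against 11.34, 10.81 and 10.73 in control cells. The groups did not overlap, and it fell by 0.77 (SE 0.11, limma adjusted p 0.0337 with the block and 0.167 without it). The Src family kinase FYN rose by 0.49 (SE 0.09), the LIM domain adaptor FHL2 by 0.44 (SE 0.09) and the heparan sulfate carrier glypican-1 (GPC1) by 0.44 (SE 0.09), with limma adjusted p of 0.0456, 0.0456 and 0.0482 with the block. The median difference of the 56 was -0.01, against -0.02 over all tested genes.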

How the data were processed

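Expression was measured on 6 Affymetrix arrays of Capan-1 cells, 3 siGNE and 3 control. The authors deposited log2 values for 54675 probe sets, made with GCRMA per the submitters' processing notes. The GCRMA version and the chip definition used for it are not given here, nor is it stated that all arrays went through it in 1 run. Array medians ran from 2.96 to 3.02, values near them are close to background, and differences that start there are uncertain. Arrays have no read depth, and their number limits the precision.

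Names came from the platform annotation (41097 with 1 gene symbol, 1801 with several, 11777 with none), with symbols updated by gene identifier from RefSeq, for 41043 probe sets. The test was limma 3.58.1 in R 4.3.3 (lmFit, eBayes), siGNE minus control, with the replicate number as a block, on the 22085 probe sets with a mean above 4, without 62 control probe sets. Benjamini-Hochberg adjustment ran over all of these, with adjusted p under 0.05 as the threshold. The block leaves 2 residual degrees of freedom, and the fit without it 4. The pairing comes from the numbers in the titles. Deviations from the group means correlated at 0.58, 0.71 and 0.83 within numbers, all above the limit of 0.1, and at -0.64 to 0.17 between numbers. Array siGNE 2 with control 1 (0.14) and siGNE 1 with control 2 (0.17) also lay above 0.1. Passing that limit therefore does not set pairs apart from other arrays. The deviations of a group cancel out by construction, so positive values within numbers push those between numbers down. The fit was run on simulated data to check that it returned the size of known changes. That check does not test the calls made on these arrays.

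The members, the lists and the paired design were chosen with earlier results of these data known. Values on every array are given for members called and for the 2 members of each role with the smallest unadjusted p, other probe sets of a member where they differ in sign or call, and of the other adhesion genes those called. Values beyond these were added afterwards. Alternatives were no block, other filters, values below 4 raised to 4, median centring, quantile normalization, robust or trended variances, other choices of probe set, an adjusted p under 0.1 and leaving out each pair.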

Additional observations from a re-analysis of the deposited data

How the results depend on the processing

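FERMT2 and ITGB8 kept their direction under all alternatives run, FERMT2 from 0.57 to 0.71 and ITGB8 from -0.47 to -0.41, with limma adjusted p of 0.0143 to 0.189 and 0.0232 to 0.219. Most alternatives could not have turned these signs. The block, the filters, the floor at 4, the variance settings and the threshold leave their differences unchanged. Leaving out 1 pair cannot turn a sign that all 3 pairs share. ITGB8 has 1 tested probe set, so only quantile normalization and median centring could have turned its sign. Without the replicate block the adhesion genes that rose and fell numbered 0 and 0 (3 genes passed in the whole table), and without a filter on low values 0 and 0 (0 genes in the whole table). Leaving out pair 1, 2 or 3 gave 0 rises and 0 falls each time. These fits have 1 residual degree of freedom and called 0 genes in the whole table, so they say little about stability, and 3 to 7 of the 34 had an unadjusted p under 0.05. The count of rises was 2 with quantile normalization and 2 with median centring (1 fall in each, against 1 and 1 as reported), 3 with a mean above 6, 4 with a variance trend, 4 at an adjusted p under 0.1 and 3 with the mean of a gene's probe sets, where 2 fell (ITGB8 and ITGB5). At a limma adjusted p under 0.1, 5 of the 34 passed in either direction, against 2425 of all 10733 tested genes. For the other settings of this count the share over all genes is not given here. Nor is it given for the unadjusted p without 1 pair or for the counts by pair that follow. None of these counts is read as a result about the adhesion genes. Genes higher in all pairs numbered 5 of 17 with the second-highest probe set and, without 1 pair, 12 to 17. Genes lower in all pairs numbered 5 with quantile normalization, 5 with median centring and 4 with the second-highest probe set, and 9 to 12 without 1 pair. The median difference ran from -0.02 to 0.11 over all alternatives, both ends without 1 pair.

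Of the 34 genes, 22 kept their sign under every alternative. This count says little about stability, as many alternatives could not turn a sign. The block, the filters, the variance settings and the threshold leave a gene's difference unchanged. Only 17 genes have more than 1 tested probe set, so other choices of probe set could not turn the rest. The sign turned with the mean of probe sets for LAMC1 (0.19), PTK2 (-0.11), CD44 (0.44, limma adjusted p 0.0320), DST (-0.023) and PARVA (-0.028). With the second-highest probe set it turned for LAMC1 (0.49), PTK2 (-0.0080), CD44 (0.16), DST (-0.51) and FERMT1 (-0.0050). ITGB5 was 0.0092 with quantile normalization and 0.037 with median centring. Without 1 pair, the range was -0.053 to 0.15 for ACTN4, -0.22 to 0.038 for LAMC1, -0.016 to 0.20 for ZYX, -0.074 to 0.086 for ITGB5, -0.035 to 0.11 for ITGA3, -0.35 to 0.17 for TLN1, -0.11 to 0.17 for LAMB2, -0.0035 to 0.30 for PARVA and -0.0049 to 0.15 for FERMT1. Except where fewer arrays, more tested probe sets or another probe set enter by construction, the cause was not tested. The probe sets 229221_at of CD44 and 201124_at of ITGB5, examined after their values were seen, ran from 1.34 to 1.48 and from -0.95 to -0.78 and lost their call without the block, without a filter and without any 1 pair.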
